A study of Mus musculus with 4 samples.

Results

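Peroxisome biogenesis and peroxisomal metabolism were described through 35 genes, chosen by name for their place in this organelle, out of 37315 genes in the count files. Liver RNA came from mice labelled as Fto knockout (KO) and from wild-type mice (WT), with 2 libraries of each genotype. FTO is an RNA demethylase, and setting KO against WT liver shows which transcripts differ where its gene is disrupted. All 4 libraries were labelled C57BL/6 liver at 23 weeks; neither the knockout allele nor the sex or diet is given in the sources used here, and whether each library is a different mouse is not stated, so the p-values reflect only the library-to-library spread, which may be technical. Each of the 35 names matched 1 gene identifier, 13 of them Pex genes, which build the organelle, 18 enzymes of its interior (the matrix) and 4 membrane transporters and channels.

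Peroxisomes are small organelles bounded by a single membrane, and hepatocytes are rich in them. They shorten very long-chain and branched fatty acids, finish bile acid side chains, begin ether lipid synthesis, detoxify glyoxylate and break down the hydrogen peroxide that their oxidases release. Matrix proteins are made in the cytosol and carried in by cycling receptors, which a ubiquitin ligase and an ATPase complex then pull back out. In rodent liver the receptor PPARα, which is activated by fatty acids, is a known inducer of many genes of peroxisomal fatty acid oxidation.

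The libraries held 44689114 and 40947808 reads assigned to genes in KO and 41332870 and 39549592 in WT. Fto was at 13.1 and 12.1 CPM (counts scaled to the library size and to 1e+06 reads) in KO, against 41.2 and 33.9 CPM in WT, and fell by 1.57 on the log2 scale (SE 0.195, adjusted p = 0.0109, edgeR), to 0.336 of the WT level, so reads from the gene remained in KO. Defining hepatocyte markers were abundant in every library, with a summed level of 7 genes of 82791 and 92592 CPM in KO and 74108 and 84636 CPM in WT. All 10 Kupffer cell markers were higher in both KO libraries than in both WT libraries, and 2 of them were called higher. Their sums were 345.6 and 372.0 CPM in KO and 159.7 and 238.9 CPM in WT. Over all tested genes, 49.2% had a log2 fold change below 0 and 1.91% were called in either direction. Both KO libraries were below both WT libraries for 20.4% of tested genes and above them for 21.6%. The 8 adipocyte markers summed to 16.9 and 38.9 CPM in KO and 50.5 and 106.9 CPM in WT, and of these Adipoq, Lep and Retn had 0 reads in at least 1 library. Of the 7 adipocyte markers tested 6 had a log2 fold change below 0, 3 had both KO libraries below both WT libraries and 1, Pparg, was called lower. All 7 stellate cell markers had a log2 fold change below 0 and 4 had both KO libraries below both WT libraries, though none was called. Their sums were 163.0 and 169.9 CPM in KO and 162.4 and 228.5 CPM in WT, and those of 6 endothelial markers 107.3 and 90.8 CPM in KO and 81.9 and 116.3 CPM in WT. The 6 cholangiocyte markers reached 33.6 and 44.7 CPM in KO and 26.5 and 39.1 CPM in WT. The 6 lymphocyte markers reached at most 2.18 CPM in any library. The 5 proximal tubule markers summed to 3.37 and 2.57 CPM in KO and 0.825 and 0.578 CPM in WT. Of these 5, 4 had 0 reads in at least 1 library, and the only 1 tested was called higher. The part of these cell types in the results below was not tested. In bulk tissue, fewer cells of a type and less RNA per cell cannot be told apart.

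Sequences are shown for the thiolase pair Acaa1b and Acaa1a, because Acaa1b was called, Acaa1a was not, and their transcripts share stretches of read length. They are also shown for Hao2, which had the lowest KO level of the 35 genes relative to WT. The promoters below are from RefSeq on build GRCm38.p6, written 5′ to 3′ on the gene's strand, with 250 bases before the annotated start and, in capitals, the first 50 transcribed bases. Acaa1b lies at chr9:119157044-119157343 (minus strand), Acaa1a at chr9:119341044-119341343 (plus strand) and Hao2 at chr3:98893181-98893480 (minus strand).
Acaa1b: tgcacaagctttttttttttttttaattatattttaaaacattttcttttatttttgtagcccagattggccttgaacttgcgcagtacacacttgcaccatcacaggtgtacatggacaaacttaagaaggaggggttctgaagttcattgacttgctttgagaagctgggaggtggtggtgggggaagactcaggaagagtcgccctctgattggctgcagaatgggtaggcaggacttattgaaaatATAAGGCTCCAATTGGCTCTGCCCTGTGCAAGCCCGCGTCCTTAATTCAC
Acaa1a: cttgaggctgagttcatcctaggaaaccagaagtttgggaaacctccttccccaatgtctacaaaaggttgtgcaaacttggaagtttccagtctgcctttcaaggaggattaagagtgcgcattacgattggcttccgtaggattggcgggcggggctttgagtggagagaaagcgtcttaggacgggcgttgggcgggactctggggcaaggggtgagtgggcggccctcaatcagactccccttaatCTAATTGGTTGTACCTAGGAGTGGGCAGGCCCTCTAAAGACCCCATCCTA
Hao2: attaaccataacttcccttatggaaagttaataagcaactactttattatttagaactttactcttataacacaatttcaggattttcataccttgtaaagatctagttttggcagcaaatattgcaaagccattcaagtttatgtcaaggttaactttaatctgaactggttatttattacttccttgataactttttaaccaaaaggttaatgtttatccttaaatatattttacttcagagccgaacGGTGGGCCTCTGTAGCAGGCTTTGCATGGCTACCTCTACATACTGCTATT

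RefSeq gave a promoter for 30 of the 35 genes. The binding motif of PPARα with its partner RXR is a direct repeat spaced by a single base, searched here as AGGTCANAGGTCA on both strands. It had no exact match in the 36 member promoters, against 0.0396% of all 32817 promoters. With up to 2 mismatches it was found in 2 of the 36 member promoters, those of Acox2 (AGGACAGAGGTGA) and Cat (AGGTCAGAGAACA), against 3.86% of all promoters. The single motif AGGTCA, which the repeat contains, was present for Cat, Pex11g, Phyh and Scp2, against 16.3% of all promoters. The windows end close to the start site, so elements farther away or inside the gene were not searched.

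The coding sequences of Acaa1b and Acaa1a have the same length of 1272 bases and differ at 44 of them (96.5% identity), with a longest identical run of 327 bases. The 150-base stretch with the most differences is shown with the 16 differing bases in capitals. It covers coding bases 453 to 602 of each annotated transcript (GENCODE M21, counted from the start codon). Reads over such stretches can be told apart, while a read pair that lies wholly within the identical run cannot.
Acaa1b: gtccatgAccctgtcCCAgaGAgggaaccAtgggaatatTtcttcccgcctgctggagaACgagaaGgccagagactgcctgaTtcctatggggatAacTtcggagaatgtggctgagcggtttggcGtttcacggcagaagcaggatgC
Acaa1a: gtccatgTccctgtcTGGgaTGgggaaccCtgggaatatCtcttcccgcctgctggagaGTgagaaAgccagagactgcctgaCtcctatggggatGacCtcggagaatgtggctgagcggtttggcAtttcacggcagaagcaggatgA

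Of the 35 genes, 3 were lower in KO and none higher at an adjusted p under 0.05 (edgeR quasi-likelihood test, Benjamini-Hochberg over 13836 tested genes), against 1.91% of all tested genes. These were Abcd2, a transporter of very long-chain acyl-CoA, Hao2, a hydroxyacid oxidase, and Acaa1b, a thiolase. Over all 35, these 3 included, values leaned lower in KO: 27 log2 fold changes were below 0, against 49.2% of all tested genes, and the median was -0.27, against 0.01 over all tested genes. Both KO libraries lay below both WT libraries for 21 genes, against 20.4% of tested genes, and above them for 3 (Pex10, Nudt7 and Hao1), against 21.6%. At an unadjusted p under 0.05 there were 12, of which 10 were lower and 2 higher, against 13.0% of tested genes. Among the 32 genes that were not called, 24 log2 fold changes were below 0, 18 had both KO libraries below both WT libraries, 9 had an unadjusted p under 0.05 (7 of them lower), and the median was -0.23. The members were picked as a pathway and are not independent of each other, so these shares are descriptions and carry no test.

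**Figure D1:**
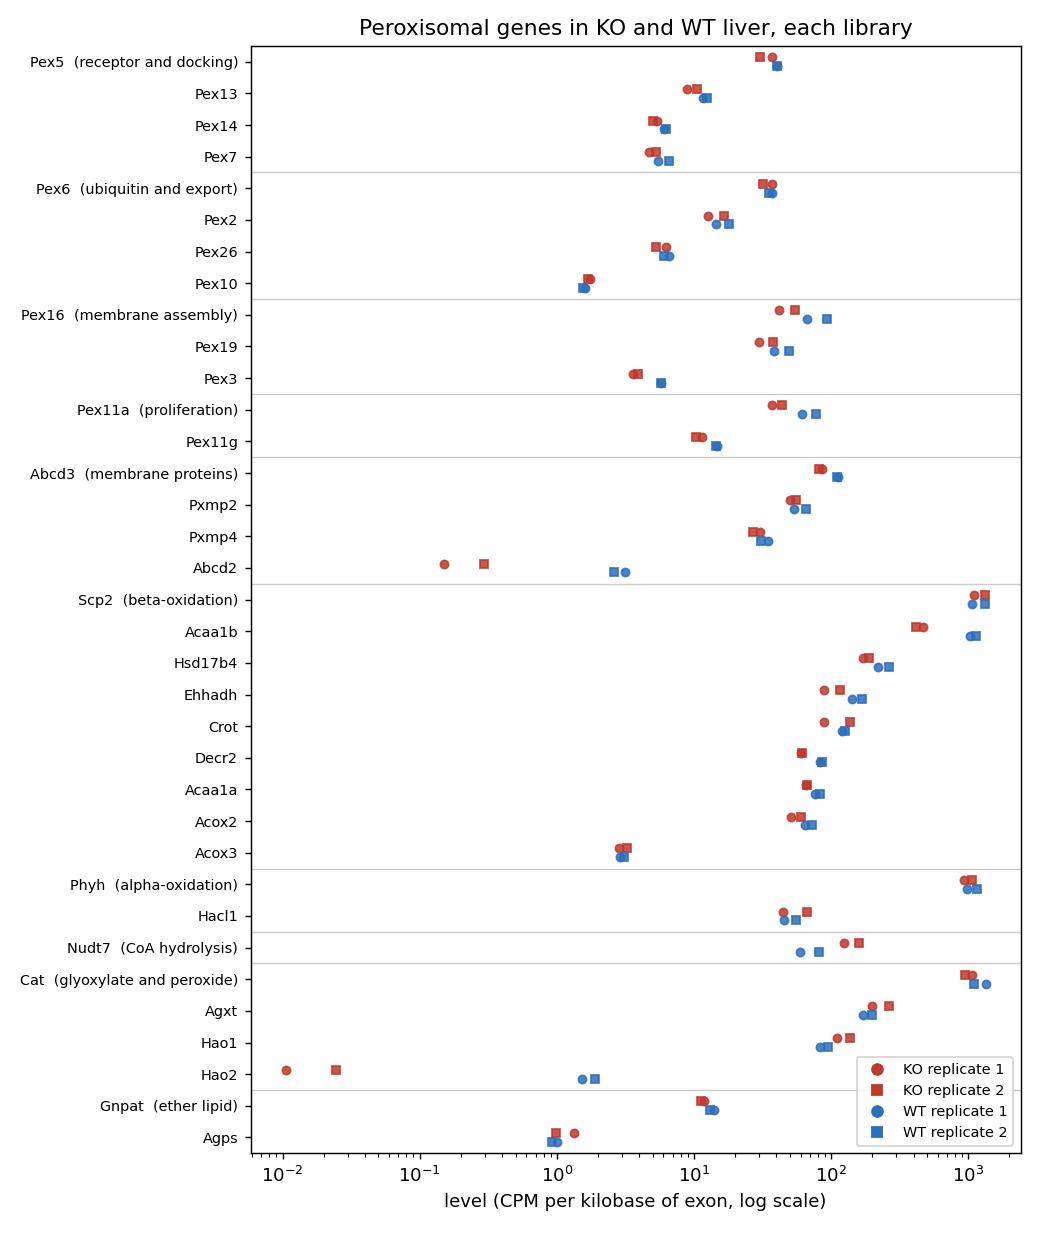
Level of each gene in each library, as CPM per kilobase of exon on a log axis, with KO in red, WT in blue, replicate 1 as circles and replicate 2 as squares. Levels span from Hao2 in KO to Scp2 and Cat, and Abcd2, Hao2 and Acaa1b show the widest gaps between the genotypes.

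Levels per kilobase of exon spanned a wide range within the organelle. Catalase (Cat), which breaks down hydrogen peroxide, stood highest in WT liver and was at 1010 in KO and 1221 in WT, in mean CPM per kilobase. Scp2, which encodes a sterol carrier protein and, from a longer transcript, a thiolase for branched chains, was at 1207 in KO and 1196 in WT. Phyh, the first enzyme of phytanic acid breakdown, was at 998 in KO and 1069 in WT, so the levels of these 3 genes were close to each other. Acaa1b stood with them in WT only, at 443.0 in KO and 1083 in WT. Pex genes were lower, from 1.58 (Pex10) to 79.6 (Pex16) CPM per kilobase in WT. The ether lipid enzyme Agps had the lowest WT level of the 35, at 1.16 in KO and 0.961 in WT.

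Pex5 and Pex7 are the receptors that carry matrix proteins bearing C-terminal and N-terminal targeting signals, and Pex13 and Pex14 form the docking site at the membrane. None of the 4 was called, and for all 4 both KO libraries were below both WT libraries, against 20.4% of tested genes. Pex5 was at 145.3 and 119.9 CPM in KO, against 159.9 and 159.5 CPM in WT (log2 fold change -0.27, SE 0.179, adjusted p = 0.617). Pex13 was at 41.2 and 48.7 CPM in KO, against 53.9 and 58.0 CPM in WT (log2 fold change -0.32, SE 0.183, adjusted p = 0.543). Pex7 had 56.9 and 64.5 CPM in KO and 66.6 and 79.9 CPM in WT, where the higher KO library stood just under the lower WT library. Pex14 had 34.0 and 31.6 CPM in KO and 38.0 and 39.3 CPM in WT; 28.3% of its exon bases overlap an antisense gene, and the library kit does not mark strand.

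Among the Pex genes, those that return receptors to the cytosol had the median log2 fold change closest to 0, at -0.10. Pex2 and Pex10 are subunits of the ubiquitin ligase, Pex6 is a subunit of the ATPase that extracts the receptors, and Pex26 anchors that ATPase to the membrane. Pex6, the most expressed of them per kilobase, was at 139.9 and 121.0 CPM in KO, against 139.9 and 134.2 CPM in WT, so the genotypes overlapped (log2 fold change -0.07, SE 0.174). Pex2 overlapped as well, with 28.7 and 37.9 CPM in KO and 32.8 and 41.3 CPM in WT. Values of Pex26 were 35.4 and 30.1 CPM in KO and 37.6 and 34.4 CPM in WT. Pex10 was the only Pex gene with a positive log2 fold change, 0.13 (SE 0.216, adjusted p = 0.888), from 5.78 and 5.6 CPM in KO and 5.26 and 5.15 CPM in WT. The SEs of these 4 genes leave room for differences of either sign.

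Pex3, Pex16 and Pex19 insert proteins into the peroxisomal membrane, and Pex11a and Pex11g belong to a family that elongates the organelle before division. All 5 had both KO libraries below both WT libraries, against 20.4% of tested genes, and none was called. Pex11a, itself a known PPARα target, was at 119.0 and 140.0 CPM in KO, against 195.0 and 247.4 CPM in WT, the lowest log2 fold change of the Pex genes at -0.77 (SE 0.197, adjusted p = 0.119). Pex16 was at 74.0 and 96.7 CPM in KO, against 117.7 and 164.9 CPM in WT (log2 fold change -0.73, SE 0.230, adjusted p = 0.214). In both genotypes the replicate 2 libraries held more Pex16 than the replicate 1 libraries. Pex3 had 17.2 and 18.6 CPM in KO and 27.4 and 27.1 CPM in WT (log2 fold change -0.61, SE 0.178, adjusted p = 0.175), so its libraries varied little within a genotype. Pex19 had 114.7 and 144.5 CPM in KO and 146.2 and 187.6 CPM in WT, where the groups nearly touched. Pex11g had 39.2 and 35.5 CPM in KO and 49.7 and 48.8 CPM in WT (log2 fold change -0.40, SE 0.175). With DESeq2, Pex11a was called (adjusted p = 0.0256) and Pex16 was not (adjusted p = 0.0876). With no filter on low counts edgeR called both Pex11a and Pex16 (adjusted p = 0.0091 and 0.0195), while limma-voom called neither (adjusted p = 0.117 and 0.219). Without WT replicate 1 the log2 fold changes were -0.93 for Pex11a and -0.95 for Pex16, against -0.60 and -0.47 without WT replicate 2.

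**Figure D2:**
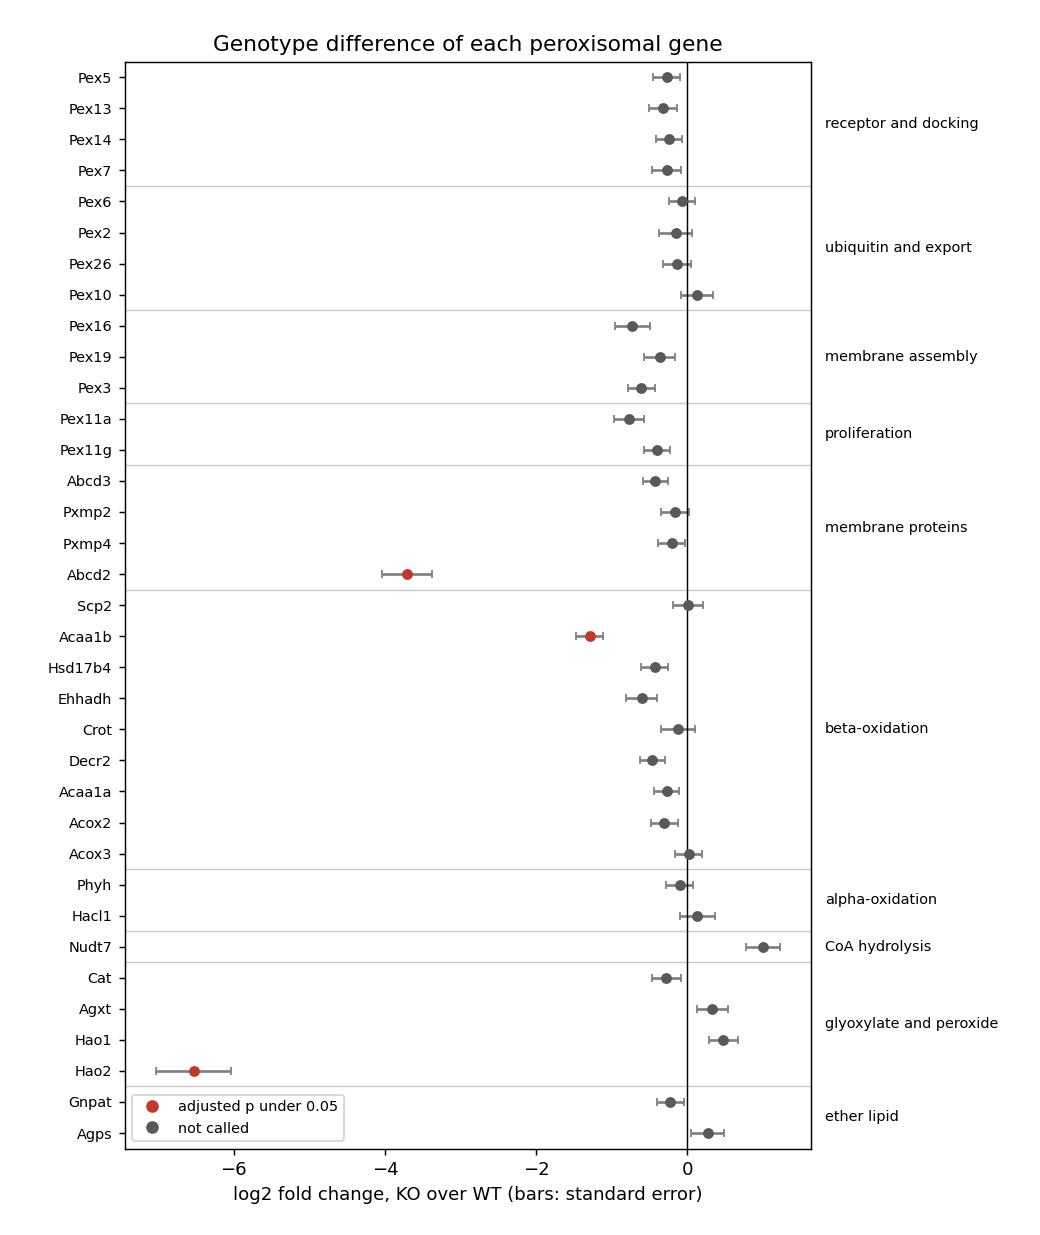
Log2 fold change of each gene, KO over WT, with its standard error, in the order of roles used in the text, called genes in red. Only Abcd2, Hao2 and Acaa1b are called, and Nudt7 has the highest value at 1.01.

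Abcd2 carried the main difference among membrane proteins. Its product is an ABC transporter that moves very long-chain and polyunsaturated acyl-CoA into the organelle. Abcd2 (chromosome 15, 91145871 to 91191799, minus strand, mm10) had 41 and 70 reads in KO, against 790 and 590 in WT. That is 0.887 and 1.75 CPM in KO, against 18.6 and 15.5 CPM in WT, and each KO library was far below each WT library. It fell by 3.70 on the log2 scale (SE 0.334, adjusted p = 0.00316, edgeR), to 7.68% of the WT level, or 13.0-fold lower. The KO libraries differed from each other by a log2 ratio of 0.94 (with 0.05 CPM added), the largest such gap among the 35 genes, and the log2 ratio of KO over WT was -4.32 within replicate number 1 and -3.11 within replicate number 2. Adipocytes also express Abcd2. The 8 adipocyte markers summed to less in KO than in WT within both replicate numbers (16.9 against 50.5 CPM and 38.9 against 106.9 CPM), while Adipoq, the marker of fat cells, had 0 and 71 reads in KO and 1 and 70 reads in WT. The part of adipocyte RNA in the difference of Abcd2 was not tested.

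Abcd3, which takes in branched and dicarboxylic acyl-CoA and bile acid intermediates, is the abundant transporter of this family in liver. It was at 563.4 and 536.4 CPM in KO, against 744.6 and 727.6 CPM in WT, and was not called (log2 fold change -0.42, SE 0.164, adjusted p = 0.331). Its WT libraries were close together and both above the KO libraries. Per kilobase, Abcd2 was at 0.00175 and 0.00362 of the level of Abcd3 in KO, against 0.0277 and 0.0236 in WT, so even the WT level was a small part of the pair. Coding sequences of Abcd2 and Abcd3 are 60.5% identical, and no stretch of read length in the annotated Abcd2 transcript occurs in a transcript of another gene. Pxmp2, a channel for small solutes, had 60.2 and 66.8 CPM in KO and 64.1 and 78.2 CPM in WT, which overlap. Pxmp4, an integral membrane protein, had 94.6 and 83.4 CPM in KO and 108.7 and 96.6 CPM in WT, a log2 fold change of -0.21 (SE 0.178) that was not called.

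Acaa1b was the called gene of fatty acid oxidation. It encodes a thiolase, which performs the last step of each round of chain shortening, and mice have it beside its close copy Acaa1a. Acaa1b (chromosome 9, 119148023 to 119157093, minus strand, mm10) was at 921.8 and 816.5 CPM in KO, against 2020 and 2231 CPM in WT, with a wide gap between the genotypes. It fell by 1.29 on the log2 scale (SE 0.177, adjusted p = 0.0146, edgeR), to 40.9% of WT. Acaa1a (chromosome 9, 119339676 to 119350299, plus strand) was at 290.4 and 294.2 CPM in KO, against 337.7 and 367.8 CPM in WT, and was not called (log2 fold change -0.27, SE 0.167, adjusted p = 0.577). Both KO libraries were thus below both WT libraries for each copy. The level of Acaa1b per kilobase was 7.14 and 6.24 times that of Acaa1a in KO, against 13.5 and 13.6 times in WT. Of the 101-base windows of the annotated Acaa1b transcript 30.2% occur also in transcripts of Acaa1a or of Dlec1, which overlaps it on the other strand, and of those of Acaa1a 9.64% occur in Acaa1b; the levels of the pair are therefore uncertain, and how the counting treated such reads is not given in the sources used here.

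**Figure D3:**
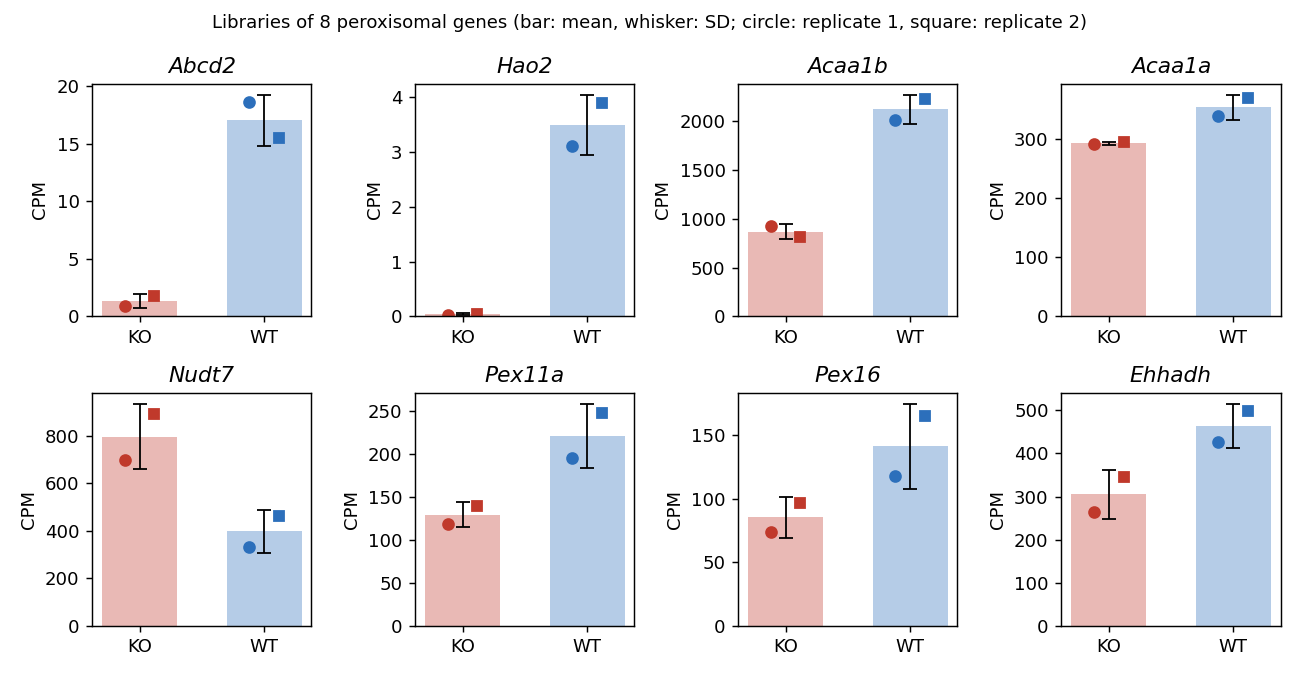
CPM of 8 genes in KO and WT liver, bars giving the mean of 2 libraries, whiskers the SD, circles replicate 1 and squares replicate 2, on linear axes from 0. Both KO libraries are below both WT libraries for every gene shown but Nudt7, where both are above. The 8 genes are a selection: of all 35, 21 were below, 3 above and 11 overlapped. Over all tested genes 20.4% were below and 21.6% above.

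The remaining enzymes of the pathway gave smaller values, none of them called. Ehhadh, the bifunctional enzyme of straight-chain oxidation and a known PPARα target, was at 264.5 and 345.2 CPM in KO, against 426.9 and 499.7 CPM in WT (log2 fold change -0.60, SE 0.199, adjusted p = 0.236). Hsd17b4, the bifunctional enzyme that also serves branched chains and bile acid intermediates, was at 582.4 and 645.8 CPM in KO, against 753.1 and 900.5 CPM in WT (log2 fold change -0.43, SE 0.180, adjusted p = 0.367). Decr2, a reductase needed for unsaturated chains, was at 160.7 and 163.8 CPM in KO, against 219.5 and 227.0 CPM in WT (log2 fold change -0.46, SE 0.165, adjusted p = 0.282). These 3 had an unadjusted p under 0.05 (edgeR), against 13.0% of tested genes. They also had both KO libraries below both WT libraries, against 20.4% of tested genes. Acox2, the oxidase for branched chains and bile acid intermediates, had a log2 fold change of -0.30 (SE 0.180), and its partner for branched fatty acids Acox3 had 0.02 (SE 0.180). Scp2 was level, with 3811 and 4585 CPM in KO and 3728 and 4593 CPM in WT (log2 fold change 0.01, SE 0.195); 32.0% of the windows of its transcript recur in other annotated transcripts, the pseudogene Scp2-ps2 among them. Crot, which turns shortened chains into carnitine esters for export, had the KO libraries on either side of the WT libraries, at 487.0 and 752.9 CPM in KO and 660.0 and 686.6 CPM in WT.

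Phytanic acid, a branched fatty acid from the diet, is shortened by alpha-oxidation through the hydroxylase Phyh and the lyase Hacl1. Phyh was at 1753 and 2023 CPM in KO, against 1860 and 2187 CPM in WT (log2 fold change -0.10, SE 0.183). Hacl1 was at 219.4 and 329.1 CPM in KO, against 224.7 and 274.7 CPM in WT (log2 fold change 0.14, SE 0.234). The genotypes overlapped for both genes. Gnpat and Agps catalyse the first steps of ether lipid synthesis. Gnpat had 42.8 and 40.6 CPM in KO and 50.4 and 46.8 CPM in WT (log2 fold change -0.22, SE 0.174), and Agps 12.5 and 9.30 CPM in KO and 9.39 and 8.72 CPM in WT (log2 fold change 0.27, SE 0.219). Neither was called, and their values lay on opposite sides of 0.

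Hao2 had the lowest log2 fold change of the 35 genes. Its product oxidises hydroxy fatty acids and releases hydrogen peroxide. Hao2 (chromosome 3, 98874521 to 98893239, minus strand, mm10) had 1 and 2 reads in KO, against 132 and 148 in WT. The level was thus 0.0216 and 0.05 CPM in KO, against 3.11 and 3.89 CPM in WT. The KO reads together correspond to 1.0% of the WT level, with a 95% exact (Clopper-Pearson) interval of 0.205% to 2.95% for counting error alone. The fitted log2 fold change was -6.53 (SE 0.498, adjusted p = 0.00135, edgeR), and it was -7.16 without KO replicate 2. Hao2 was the only one of the 35 genes with fewer than 10 reads in any library: it passed the filter on low counts through WT alone, while the other 34 had at least 41 reads in every library. It is also a low-expressed gene of WT liver, with 1.71 CPM per kilobase, below all but Pex10 and Agps of this set.

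Hao1, the glycolate oxidase that makes glyoxylate, is the abundant copy of this pair in liver and lay on the other side of 0. It was at 254.4 and 312.5 CPM in KO, against 189.1 and 217.9 CPM in WT, both KO libraries being higher, and it was not called (log2 fold change 0.48, SE 0.189, adjusted p = 0.337). Agxt, the transaminase that turns glyoxylate into glycine, was at 337.5 and 451.3 CPM in KO, against 288.4 and 337.8 CPM in WT, where the lower KO library met the higher WT library (log2 fold change 0.33, SE 0.204, adjusted p = 0.575). Cat was at 2807 and 2469 CPM in KO, against 3502 and 2879 CPM in WT (log2 fold change -0.27, SE 0.187, adjusted p = 0.625). The coding sequences of Hao2 and Hao1 are 59.4% identical, and no window of read length is shared between either transcript and another gene.

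Nudt7, which hydrolyses coenzyme A and its esters in the matrix, had the highest log2 fold change of the set. It was at 699.6 and 893.0 CPM in KO, against 333.0 and 460.1 CPM in WT, with both KO libraries above both WT libraries. The log2 fold change was 1.01 (SE 0.223), about 2.01-fold, and missed the threshold (adjusted p = 0.0765, edgeR). DESeq2 called it (adjusted p = 0.00316), as did edgeR with no filter on low counts (adjusted p = 1.1e-04), while limma-voom did not (adjusted p = 0.0725). With 1 library left out, the log2 fold change was 0.79 without WT replicate 1 and 0.81 without KO replicate 2. It was 1.17 without KO replicate 1 and 1.25 without WT replicate 2. Within number 1 the log2 ratio of KO over WT was 1.07 and within number 2 it was 0.96.

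**Figure D4:**
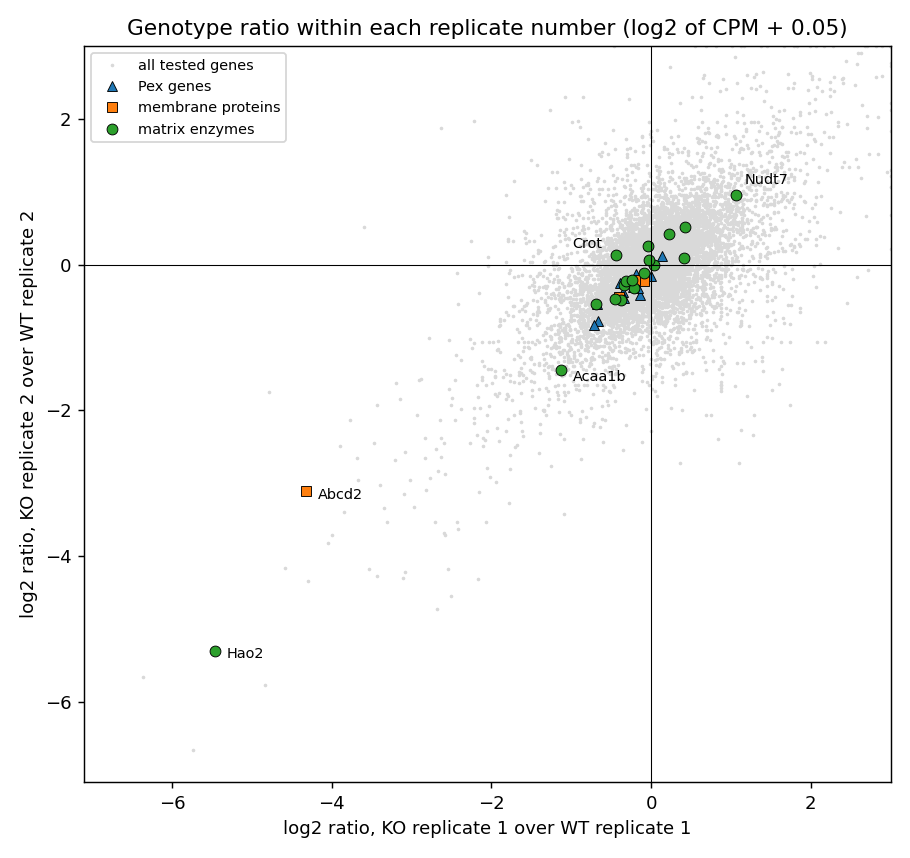
Log2 ratio of KO over WT for replicate number 1 (horizontal) and for replicate number 2 (vertical), computed from CPM plus 0.05, with all tested genes in grey (values past the axes drawn at their edge) and the 35 genes by class. Most of the 35 sit in the lower left, near 0, with Acaa1b, Abcd2 and Hao2 farther out and Nudt7 in the upper right.

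Log2 fold changes of the Pex genes covered a narrower range than those of the matrix enzymes. Of the 13 Pex genes none was called by edgeR (3 had an unadjusted p under 0.05, and DESeq2 called Pex11a), 12 had a log2 fold change below 0, and values ran from -0.77 to 0.13 with a median of -0.27. Of the 18 matrix enzymes 2 were called, 11 were below 0, and values ran from -6.53 to 1.01 with a median of -0.17. The low end is Hao2 alone, which had 1 and 2 reads in KO. The middle 50% of values ran from -0.40 to 0.11 for matrix enzymes and from -0.40 to -0.15 for Pex genes. The 4 membrane proteins were all below 0, with 1 called and a median of -0.31. Summed over the Pex genes, levels were 851.1 and 894.4 CPM in KO, against 1070 and 1228 CPM in WT. Matrix enzymes summed to 12867 and 14391 CPM in KO, against 14877 and 16225 CPM in WT, a sum carried mostly by Scp2, Cat, Phyh and Acaa1b. Acaa1b had the widest gap in mean level among them, at 869 CPM in KO and 2125 CPM in WT. The gap between the sums therefore came largely from this called gene. Over all tested genes 1.91% were called, 13.0% had an unadjusted p under 0.05 and 49.2% were below 0. No test of the difference between these classes was made.

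Libraries of the same genotype also differed. For 23 of the 35 genes KO replicate 2 was above KO replicate 1, and for 23 WT replicate 2 was above WT replicate 1, with median log2 ratios of 0.18 in KO and 0.12 in WT, against -0.01 and 0.02 over all tested genes. The log2 ratio of KO over WT had the same sign within both numbers for 31 genes. For the 21 genes with both KO libraries below both WT libraries and the 3 with both above, this holds by construction. The share over all tested genes was not computed. The median over the 35 genes was -0.23 within number 1 and -0.25 within number 2.

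Of a list of 46 further peroxisomal genes 43 could be tested, 1 was called, and 36 had a log2 fold change below 0, with a median of -0.27. The share called, 2.33%, was close to the 1.91% of all tested genes, while 83.7% were below 0, against 49.2% of all tested genes. The called gene was the acyl-CoA thioesterase Acot3, at 16.9 and 15.7 CPM in KO, against 52.3 and 70.3 CPM in WT (log2 fold change -1.91, SE 0.213, adjusted p = 0.00719, edgeR); 4.38% of its windows recur in close copies such as Acot1, so its level is uncertain. Crat, a carnitine acetyltransferase shared with mitochondria, had -0.88 (SE 0.188, adjusted p = 0.0682), and Acot4, a thioesterase for dicarboxylic chains, -0.85 (SE 0.184, adjusted p = 0.0728).

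Ppara itself was at 266.9 and 183.0 CPM in KO, against 224.6 and 144.1 CPM in WT, so the genotypes overlapped (log2 fold change 0.29, SE 0.270, adjusted p = 0.751). Among 10 regulators only Pparg, the regulator of fat cell genes, was called, with 7.77 and 7.32 CPM in KO and 15.4 and 22.1 CPM in WT (log2 fold change -1.31, SE 0.231, adjusted p = 0.0352, edgeR). Pparg is also 1 of the 8 adipocyte markers, and with library size alone as the scaling it was not called (adjusted p = 0.0607, edgeR). Of 28 genes that are known PPARα targets in other compartments 4 were lower and 1 higher (17.9%, against 1.91% of all tested genes), with a median of -0.33. This list and that of the further peroxisomal genes were chosen with earlier results of these data known. Their shares are therefore descriptions and carry no test. The lower ones were the fatty acid transporter Cd36 (log2 fold change -2.25), the pantetheinase Vnn1 (-1.51), the thioesterase Acot2 (-1.29) and Aldh3a2, a fatty aldehyde dehydrogenase (-0.92), and the higher one was the P450 gene Cyp4a31 (1.0). Calls of 3 of them were each lost in 2 alternatives: Acot2 with library size alone (adjusted p = 0.103) and without KO replicate 2 (0.0512), Cyp4a31 with library size alone (0.0717) and without WT replicate 2 (0.0603), and Aldh3a2 without KO replicate 1 (0.0997) and without WT replicate 2 (0.0857). The hydroxylase genes Cyp4a10 (-1.39, adjusted p = 0.089, edgeR) and Cyp4a32 (-0.83, adjusted p = 0.101, edgeR) were not called. Stretches shared with transcripts of other genes were not searched for in these 28 genes. The part of shared reads in their values was not tested.

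**Figure D5:**
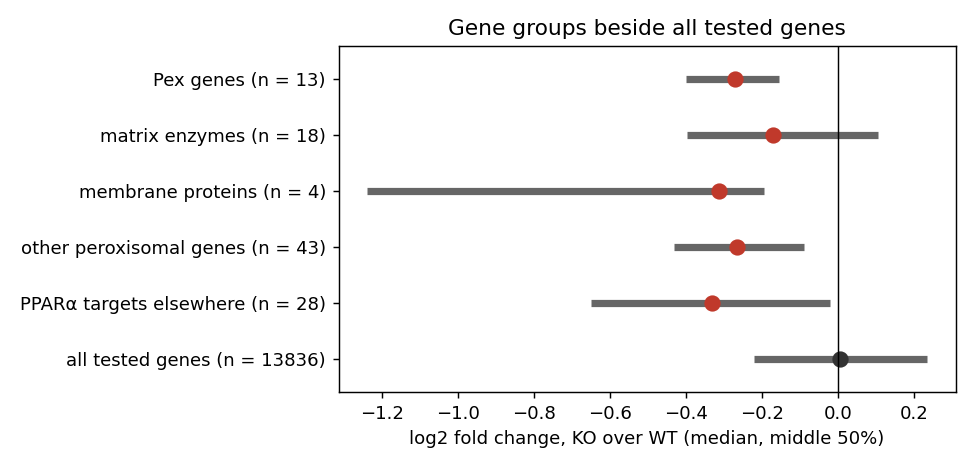
Median (point) and middle 50% (bar) of the log2 fold changes, KO over WT, of the 3 classes of peroxisomal genes, 43 further peroxisomal genes, 28 PPARα targets outside the organelle and all 13836 tested genes. The medians of the 5 groups lie between -0.33 and -0.17, against 0.01 for all tested genes.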

How the data were processed

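The deposited files hold whole-number counts of reads per Ensembl gene, not normalised, for 2 KO and 2 WT libraries. Per the labels' protocols, polyadenylated liver RNA was made into TruSeq v2 libraries and read in pairs of 101 bases. Per the submitters' processing notes, TopHat2 2.1.1, HTSeq 0.6.0 and genome build mm10 were used, with no annotation release or counting option stated. GENCODE M21 named 35449 of 37315 identifiers, and the unmatched ones held at most 0.194% of a library.

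From these counts, genes were filtered with filterByExpr (minimum count 10, minimum total 15), scaled with TMM and tested with genotype as the only term by edgeR 4.0.16 (R 4.3.3; robust quasi-likelihood F test, two-sided), with Benjamini-Hochberg adjustment over 13836 genes and a threshold of 0.05. SE is the log2 fold change over the square root of F, and CPM are TMM-scaled; 1 read was 0.0216 to 0.0263 CPM. Levels between genes are per kilobase of merged exons. Every pair of libraries differed by more than sampling noise (chi-square per degree of freedom at least 86.5). Log2 ratios between single libraries add 0.05 CPM. The procedure was tested on simulated counts.

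The members, the lists and the rule for naming genes were chosen with earlier results of these data known. The rule took every called member, up to 4 per role by smallest p and the highest per kilobase; of the further lists, called genes, Ppara and 4 others by smallest p; 1 further gene that the rule names is not reported here. Acaa1a and Hao1 were also set beside their called copies, and Acox2, Acox3 and Crot complete the pathway. Alternatives were DESeq2 1.42.0, limma-voom (limma 3.58.1), other scaling, no filter, each library left out and a replicate term.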

Additional observations from a re-analysis of the deposited data

How the results depend on the processing

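Abcd2, Hao2 and Acaa1b were called under all 10 alternatives. Of 350 values of members under alternatives, 311 kept their direction and side of the threshold, 27 gained a call, none lost one and 12 changed sign; the cause was not tested. With 1 library left out in turn, the log2 fold changes that changed sign ran from -0.3755 to 0.0361 for Pex2, -0.1771 to 0.0208 for Pex6, -0.0814 to 0.1074 for Acox3, -0.1335 to 0.1635 for Scp2, -0.4750 to 0.1637 for Crot, -0.2140 to 0.0137 for Phyh and -0.1936 to 0.4012 for Hacl1.

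Called members, further peroxisomal genes, PPARα targets elsewhere and all genes numbered 3, 1, 5 and 264 as reported, the last being 1.91% of tested genes. They numbered 6, 4, 9 and 829 with no filter, where 22419 genes were tested and 3.7% called. With DESeq2 they numbered 5, 4, 8 and 574, the last being 4.15% of tested genes. With library size alone 3 PPARα targets were called, and all genes numbered 176 (1.27% of tested genes). Leaving out 1 library gave 3 to 5 called members, 1 to 4 further peroxisomal genes, 6 to 7 PPARα targets and 460 to 633 genes in all. The median log2 fold change of the members was -0.25 with library size alone and -0.30 to -0.22 with 1 library left out. That of the Pex genes was -0.37 to -0.22 with 1 library left out. That of matrix enzymes and membrane proteins was -0.22 with DESeq2 or its size factors, -0.20 with library size alone and -0.23 to -0.19 with 1 library left out.

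A replicate block, the replicate number as a term, gave 21 called members (18 lower, 3 higher), 18 further peroxisomal genes and 17 PPARα targets. It called 2729 genes in all, or 19.7% of tested genes. Differences between the replicates correlated across genes at r = 0.427 between the genotypes, but the labels do not say that a number pairs animals. With 2 libraries per genotype and no replicate term, SEs of uncalled members ran from 0.164 to 0.234.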
